A study of Mus musculus with 2 samples.

Results

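Type 2 conventional dendritic cells were sought in CD45-enriched cells of MC38 tumors, a mouse colon adenocarcinoma line grown under the skin, and 149 of 11481 barcodes that passed the quality limits met the rule for them. The members were chosen by measured counts of unique molecular identifiers (UMIs, one per captured RNA molecule). A barcode needed at least 500 UMIs, 300 genes and at most 10% mitochondrial UMIs. It needed at least 20 UMIs of the major histocompatibility complex (MHC) class II genes H2-Aa, H2-Ab1, H2-Eb1 and Cd74, and at least 1 UMI of the C-type lectins Cd209a and Clec10a. It could hold at most 1 UMI of the complement genes C1qa, C1qb and C1qc, at most 1 of Ccr7, Fscn1 and Ccl22, 0 of the B cell gene Cd79a, and at most 1 of Cd3d, Cd3e, Cd3g, Ncr1, Klrb1c and Klre1. Of the members, 67 lay in the ketogenic diet library and 82 in the normal diet library. Because only part of the marker genes behaved as the name asks, they are called lectin-positive barcodes here.

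All hosts were female C57BL/6J mice aged 6 to 8 weeks at injection, with no engineered allele named in the labels. In the ketogenic group that diet began on day 4 after injection, and the other group stayed on normal diet. Tumors were taken on day 14 and 5 mice were pooled into each library, so each diet has 1 library and barcodes carry no mark of the mouse. No difference between the diets was therefore tested. Every ratio is ketogenic over normal, and every 95% interval covers counting error only, not the spread between mice.

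Conventional dendritic cells take up proteins, cut them in endolysosomes and display the peptides on MHC class II to CD4 T cells. The type 2 lineage depends on Irf4 and is marked by Sirpa, Itgam and, in many tissues, Cd209a or Clec10a, while Flt3 and Zbtb46 mark conventional dendritic cells in general. Monocytes that enter a tumor can also raise class II and Cd209a, and they keep Ly6c2 and the Fc receptor Fcgr1, which interferons also induce. Type I interferon drives a set of antiviral genes in all of these cells.

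The lectin-positive barcodes were about as deep as all barcodes that passed the quality limits, whose medians were 3983 UMIs in the ketogenic and 4226 UMIs in the normal library. They held a median of 4054 UMIs (1057 to 14841) and 1536 genes in the ketogenic library, and 4599 UMIs (841 to 15210) and 1673 genes in the normal library. Their UMIs summed to 321674 in the ketogenic and 433058 in the normal library, so 1 UMI is worth 3.11 CPM (UMIs scaled to 1e+06 per sum) in the ketogenic and 2.31 CPM in the normal sum. The libraries shared 7 barcode sequences among those of at least 500 UMIs and 300 genes, and no member was among them.

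Members were a small share of either library. They were 1.14% (Clopper-Pearson 0.885 to 1.45) of 5873 ketogenic barcodes and 1.46% (1.16 to 1.81) of 5608 normal barcodes, a log2 ratio of −0.36 (−0.85 to 0.13). The interval includes equal shares, so a difference was not detectable at this depth. Class II-high barcodes that met every condition but the one on lectins were 4.26% (250 barcodes) in the ketogenic and 6.95% (390 barcodes) in the normal library, a log2 ratio of −0.71 (−0.94 to −0.48). Within them the lectin-positive ones made up 26.8% (21.4 to 32.7) in the ketogenic and 21.0% (17.1 to 25.4) in the normal library. These shares add up to a whole of CD45-enriched barcodes, and barcodes with 10 or more C1q UMIs were 4.65% of the ketogenic and 12.3% of the normal library.

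Lectin UMIs were few per barcode. Cd209a, a receptor for glycans on pathogens, was seen in 52 of 67 ketogenic and 62 of 82 normal members. Clec10a, a receptor for galactose-type sugars, was seen in 31 ketogenic and 40 normal members, and both lectins together in 16 ketogenic and 20 normal members. Exactly 1 lectin UMI admitted 19 of the ketogenic members (28.4%) and 38 of the normal members (46.3%). With at least 2 lectin UMIs required, 48 ketogenic and 44 normal barcodes remained. On the outer side of that limit lay 183 ketogenic and 308 normal barcodes with 0 lectin UMIs. Near the class II limit, 4 ketogenic and 4 normal members held 20 to 24 class II UMIs, and 2 barcodes of each library missed the rule with 15 to 19. At the C1q limit, 5 ketogenic and 20 normal members held 1 UMI, while 1 ketogenic and 3 normal barcodes missed the rule with 2 UMIs. At the limit on T and NK cell genes, 15 ketogenic and 13 normal members held 1 UMI, against 4 ketogenic and 1 normal barcodes outside with 2.

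Markers of the type 2 lineage were mixed. The share of barcodes with a UMI of a gene was compared after each barcode was thinned to 1500 UMIs, which kept 66 ketogenic and 80 normal members. Napsa, an aspartic protease of antigen-presenting cells, was present in 63.6% of thinned ketogenic and 63.8% of thinned normal members, against 44.6% of ketogenic and 44.8% of normal class II-high barcodes without lectins. Kmo, an enzyme of tryptophan breakdown, was present in 13.6% of ketogenic and 8.75% of normal members. Dpp4, a surface peptidase, was present in 13.6% of ketogenic and 17.5% of normal members. Cd7, a membrane glycoprotein, was present in 11 of 66 ketogenic and 16 of 80 normal members. Of the lineage genes, Flt3, Zbtb46 and Irf4 were scarce, but Sirpa was not. Flt3, the growth factor receptor, was found in 3.03% (0.369 to 10.5) of thinned ketogenic and 11.2% (5.28 to 20.3) of thinned normal members. Zbtb46, a transcription factor, was found in 1.52% of ketogenic and 3.75% of normal members. Before thinning, Flt3 was found in 11.9% of ketogenic and 23.2% of normal members. Sirpa, also before thinning, was found in 39.2% of ketogenic and 42.9% of normal members with 2 or more Ly6c2 and Fcgr1 UMIs. In members with fewer than 2 such UMIs it was found in 37.5% of ketogenic and 42.1% of normal ones. Irf4, the factor the lineage depends on, had 1 UMI over all ketogenic members and 9 UMIs over all normal members. Over 23 cDC2 genes the summed level was 5061 CPM in ketogenic and 4600 CPM in normal members. In class II-high barcodes without lectins it was 3226 CPM in the ketogenic and 3148 CPM in the normal library, but this list includes the lectins that the rule used.

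Monocyte genes were common in the same barcodes. Ly6c2 was present in 71.6% of ketogenic and 74.4% of normal members before thinning, and Fcgr1 in 64.2% of ketogenic and 70.7% of normal members. After thinning, Fcgr1 stood at 39.4% (27.6 to 52.2) of ketogenic and 48.8% (37.4 to 60.2) of normal members. In barcodes gated on T and NK cell genes, which should lack it, the thinned share was 11.4% in the ketogenic and 14.5% in the normal library, at median depths of 6266 UMIs in the ketogenic and 6253 UMIs in the normal one. Ly6c2 can be made by T cells too, and its thinned share was 59.1% in ketogenic and 60.0% in normal members, against 47.4% of ketogenic and 54.7% of normal T and NK barcodes. All 16 genes of the monocyte list were detected in the members of both libraries, at a summed 10253 CPM in the ketogenic and 10911 CPM in the normal library. Barcodes gated on 5 or more UMIs of Ly6c2, Chil3 and Plac8 held 20000 CPM in the ketogenic and 19140 CPM in the normal library. The sum did not set the members apart from other myeloid barcodes. It was 9677 CPM in ketogenic and 11129 CPM in normal C1q-positive barcodes, and 14296 CPM in ketogenic and 14245 CPM in normal class II-high barcodes without lectins, again with all 16 genes detected.

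**Figure D1:**
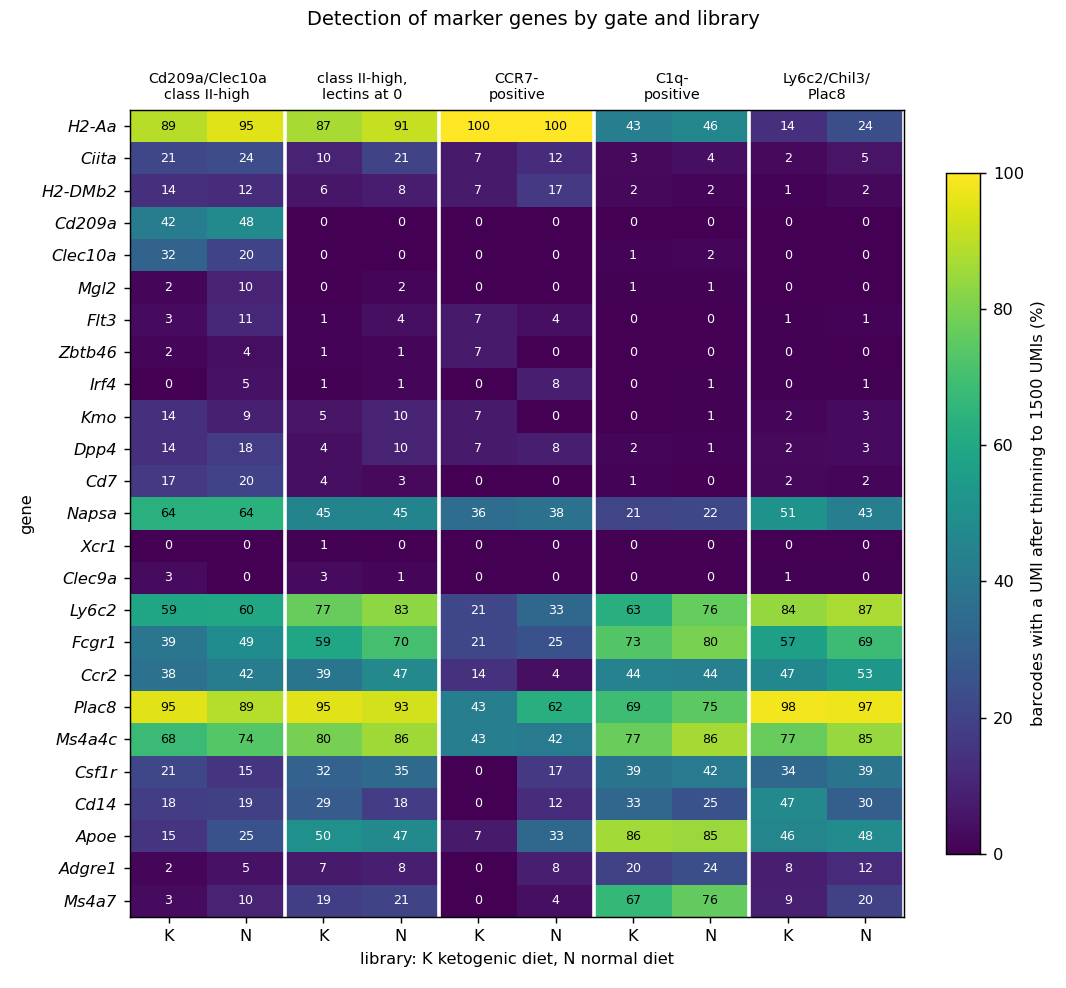
Share of barcodes with at least 1 UMI of each gene after thinning to 1500 UMIs (percent, colour and printed number), by gate (column pairs) and library (K ketogenic, N normal). The lectin-positive columns combine Napsa, Cd7, Kmo and Dpp4 with Ly6c2 and Fcgr1, and Flt3 is at 3.03% in ketogenic and 11.2% in normal members.

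Lists of other cell types were detected as well. Xcr1, the receptor that defines type 1 conventional dendritic cells, had 0 UMIs in members of both libraries, but 9 of 14 genes of that cell type's list were detected in ketogenic and 12 of 14 in normal members, at a summed 1243 CPM in the ketogenic and 1372 CPM in the normal library. The plasmacytoid dendritic cell list summed to 1924 CPM in ketogenic and 1674 CPM in normal members. The T and NK cell list summed to 1483 CPM in ketogenic and 1600 CPM in normal members, with Ncr1 at 0 in both. Of the CCR7-positive mature dendritic cell genes, Ccl22 was at 0 in both libraries, and Ccr7 in the ketogenic and Fscn1 in the normal members, which the rule helps to fix. The macrophage list summed to 1206 CPM with 15 of 18 genes detected in ketogenic members, and to 2069 CPM with 18 of 18 in normal members. Mertk, Mrc1 and Pf4 were at 0 in ketogenic members. The neutrophil list summed to 1091 CPM in ketogenic and 2011 CPM in normal members. S100a8, a neutrophil alarmin, lay in 3 ketogenic and 5 normal barcodes, and 1 barcode held 60.0% of its UMIs in the ketogenic and 64.9% in the normal library. The part of these transcripts in the differences between diets was not tested.

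Dendritic cell and monocyte transcripts were also detected in the same barcodes. A UMI of Ly6c2 or Fcgr1 together with a UMI of Flt3, Zbtb46, Kmo or Dpp4 was found in 33 ketogenic and 46 normal members. Only the monocyte pair was found in 22 ketogenic and 25 normal members. Only the dendritic cell genes were found in 9 ketogenic and 5 normal members, and neither in 3 ketogenic and 6 normal members. After thinning, both kinds were found in 18.2% (9.76 to 29.6) of ketogenic and 26.2% (17.0 to 37.3) of normal members, against 2.81% of ketogenic and 3.76% of normal T and NK barcodes. Before thinning both kinds were found in 315 of 2233 ketogenic and 218 of 1361 normal T and NK barcodes. The part of free RNA in the co-detection was not tested. Thus 51 ketogenic members (76.1%) and 63 normal members (76.8%) held 2 or more UMIs of Ly6c2 and Fcgr1, while 16 ketogenic and 19 normal members held fewer than 2.

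**Figure D2:**
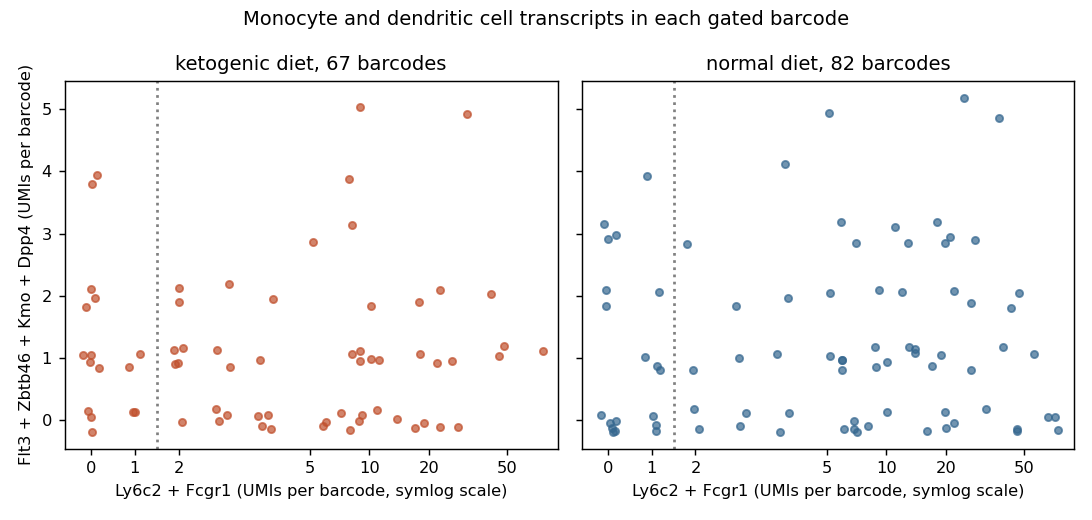
UMIs of Ly6c2 plus Fcgr1 (horizontal, symlog scale) against UMIs of Flt3, Zbtb46, Kmo and Dpp4 (vertical) in each lectin-positive barcode, with small seeded jitter. The left panel holds 67 ketogenic and the right panel 82 normal barcodes, and the dotted line separates fewer than 2 from 2 or more Ly6c2 and Fcgr1 UMIs.

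H2-Aa and Cd209a, both counted by the rule, were higher in the barcodes with fewer than 2 of these UMIs. H2-Aa, the alpha chain of the I-A class II molecule, stood at 8658 CPM in ketogenic and 10606 CPM in normal barcodes with fewer than 2. It stood at 5837 CPM in ketogenic and 6192 CPM in normal barcodes with 2 or more. Cd209a stood at 1026 CPM in ketogenic and 975 CPM in normal barcodes with fewer than 2, against 651 CPM in the ketogenic and 449 CPM in the normal library in those with 2 or more. Clec10a, the other lectin of the rule, was mixed. It stood at 116 CPM in ketogenic and 390 CPM in normal barcodes with fewer than 2. In those with 2 or more it stood at 283 CPM in the ketogenic and 163 CPM in the normal library. Outside the rule, Flt3 and Cd7 were higher with fewer than 2 in both libraries, but Kmo and Napsa only in the normal one. Cst3, the protease inhibitor cystatin C, stood at 13226 CPM in ketogenic and 4250 CPM in normal barcodes with fewer than 2. It stood at 4570 CPM in ketogenic and 3715 CPM in normal barcodes with 2 or more. Of class II genes outside the rule, H2-DMa stood at 828 CPM in ketogenic and 1053 CPM in normal barcodes with fewer than 2, against 708 CPM in the ketogenic and 629 CPM in the normal library in those with 2 or more. Ciita had 9 UMIs in ketogenic and 21 UMIs in normal barcodes with fewer than 2. The split at 2 UMIs is a range of a count, not a cell type.

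Between the diets, few genes of the lectin-positive barcodes differed by 2-fold, and more were lower in the ketogenic library than higher. Fold changes were taken on the scale of log2(CPM + 20), which understates the change of low genes, over 2145 genes with at least 50 UMIs in both sums together. On that scale 2 genes (0.0932%) were at least 2-fold higher in the ketogenic library and 38 genes (1.77%) at least 2-fold lower. At 1.5-fold, 65 genes (3.03%) were higher and 191 (8.9%) lower, and the median of all 2145 was −0.03. Genes of short transcripts (334 to 711 bases) had a median of 0.07 and those of the longest (1773 to 16716 bases) a median of −0.14.

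Type I interferon-stimulated genes were lower as a group in the ketogenic members. Of 47 measured genes 16 were at least 1.5-fold lower and 0 higher, with a median log2 ratio of −0.37. Ifit1, which binds foreign RNA ends, had 73 UMIs (227 CPM, exact Poisson 178 to 285) in ketogenic and 272 UMIs (628 CPM, 556 to 707) in normal members. It was seen in 32.8% of ketogenic and 65.9% of normal members, and its raw ratio was 0.361 (0.275 to 0.469). Rsad2, the antiviral enzyme viperin, stood at 469 CPM in ketogenic and 1067 CPM in normal members. In either library 1 barcode held a large part of Rsad2, 22.5% in the ketogenic and 19.9% in the normal one, and without those barcodes the levels were 377 CPM in the ketogenic and 885 CPM in the normal library. Ifih1, the sensor of long double-stranded RNA, stood at 127 CPM in ketogenic and 284 CPM in normal members. Oas3, which makes the second messenger that activates RNase L, stood at 106 CPM in ketogenic and 229 CPM in normal members. Ifit1bl1, a paralog of Ifit1, stood at 77.7 CPM in ketogenic and 201 CPM in normal members, and near-identical copies such as Ifit3 and Ifit3b can share reads.

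The list did not move as a block. Bst2, the tetherin that holds virus particles at the membrane, stood at 1477 CPM in ketogenic and 1143 CPM in normal members (log2 ratio 0.36). Ifitm3, which blocks virus entry, stood at 8540 CPM in ketogenic and 7733 CPM in normal members (0.14). Ifi27l2a stood at 3824 CPM in ketogenic and 3441 CPM in normal members (0.15). Isg15, a ubiquitin-like modifier, stood at 2723 CPM in ketogenic and 3321 CPM in normal members (−0.28), and Irf7, the factor that amplifies interferon production, at 1107 CPM in the ketogenic and 1312 CPM in the normal library (−0.24).

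To show what the lower and the higher genes carry upstream, the promoter windows of 3 genes that were lower and of Bst2 are printed, 250 bases before to 50 after the annotated start. They come from RefSeq on GRCm38.p6: Ifit1 at chr19:34640639-34640938 (plus strand), Rsad2 at chr12:26456403-26456702 (minus strand), Oas3 at chr5:120777610-120777909 (minus strand) and Bst2 at chr8:71537423-71537722 (minus strand). Capitals mark GAAANNGAA on either strand (N is any base), the core letters bound by interferon regulatory factors, and overlapping matches run together.
Ifit1: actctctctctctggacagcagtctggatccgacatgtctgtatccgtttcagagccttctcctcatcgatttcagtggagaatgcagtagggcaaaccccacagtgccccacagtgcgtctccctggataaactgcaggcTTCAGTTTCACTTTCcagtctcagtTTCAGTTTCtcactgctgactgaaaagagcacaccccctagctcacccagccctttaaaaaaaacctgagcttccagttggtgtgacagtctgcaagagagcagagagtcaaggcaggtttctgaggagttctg
Rsad2: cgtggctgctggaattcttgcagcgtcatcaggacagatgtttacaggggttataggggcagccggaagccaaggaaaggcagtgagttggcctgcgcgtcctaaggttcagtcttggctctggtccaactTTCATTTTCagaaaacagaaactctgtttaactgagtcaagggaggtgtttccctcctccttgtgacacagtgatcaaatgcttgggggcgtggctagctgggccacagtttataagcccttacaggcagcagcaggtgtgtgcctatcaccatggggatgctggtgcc
Oas3: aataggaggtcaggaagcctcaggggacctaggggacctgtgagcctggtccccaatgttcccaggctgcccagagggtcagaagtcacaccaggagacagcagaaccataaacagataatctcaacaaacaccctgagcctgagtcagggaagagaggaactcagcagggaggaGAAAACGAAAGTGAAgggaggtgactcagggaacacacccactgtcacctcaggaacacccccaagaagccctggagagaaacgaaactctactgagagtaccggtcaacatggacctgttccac
Bst2: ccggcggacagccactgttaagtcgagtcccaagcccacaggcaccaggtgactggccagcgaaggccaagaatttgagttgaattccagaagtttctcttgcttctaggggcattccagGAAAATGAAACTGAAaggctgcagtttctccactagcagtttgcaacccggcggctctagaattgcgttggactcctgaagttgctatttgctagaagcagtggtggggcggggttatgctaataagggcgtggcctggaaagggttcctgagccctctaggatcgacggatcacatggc
Ifit1 holds 3 matches, Rsad2 holds 1, and Oas3 and Bst2 hold 2 each. The letters thus stand before Bst2, which was higher, as well as before the genes that were lower. Of 47 measured type I genes 36 had a promoter entry and 21 of these (58.3%) held the letters, against 2638 of 27025 genes with an entry (9.76%). The letters stood in 8 of 12 genes that were 1.5-fold lower and in 13 of 24 that were not. A match is a description of the sequence and not a bound site.

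Per barcode the libraries overlapped. The type I list summed to a median of 27474 CPM (quartiles 18004 and 34261) over ketogenic members and 28971 CPM (17581 and 46125) over normal members. The lower and middle quartiles were close, and the upper quartile was the one that stood apart.

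**Figure D3:**
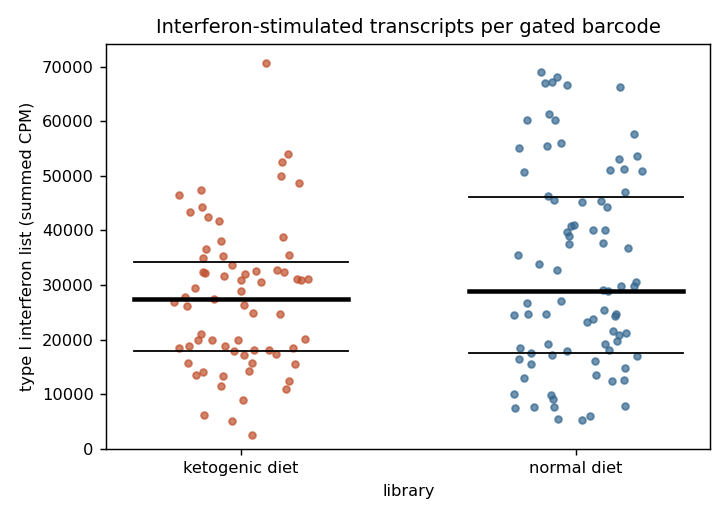
Summed CPM of the type I interferon list in each lectin-positive barcode (points, seeded jitter), ketogenic library left and normal library right. The thick line is the median and the thin lines the quartiles, with upper quartiles of 34261 CPM in ketogenic and 46125 CPM in normal members.

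The sum of the list and its single genes differed in barcodes with few Ly6c2 and Fcgr1 UMIs. In those with 2 or more such UMIs the summed type I list stood at 31451 CPM in 51 ketogenic and 36553 CPM in 63 normal barcodes, a ratio of 0.860 (0.837 to 0.885). In those with fewer than 2 it stood at 17563 CPM in 16 ketogenic and 15271 CPM in 19 normal barcodes, a ratio of 1.15 (1.06 to 1.25). That sum is led by abundant genes such as Ifitm3, at 6820 CPM in ketogenic and 5160 CPM in normal barcodes with fewer than 2. Only 8 genes of the list reached 50 UMIs in this smaller set, and their median log2 ratio was 0.43. Over all 47 genes measured in the members, the median in the smaller set was −0.18, with 19 genes above 0 and 28 below, many of them from few UMIs. Ifit1, Rsad2, Oas3 and Ifih1 were lower in ketogenic barcodes there too. Ifit1 had 3 UMIs in ketogenic and 13 UMIs in normal barcodes with fewer than 2, Rsad2 had 5 in the ketogenic and 21 in the normal library, Oas3 had 3 in the ketogenic and 8 in the normal library, and Ifih1 had 5 in the ketogenic and 8 in the normal library. Ifit1bl1 had 2 UMIs in ketogenic and 0 UMIs in normal barcodes with fewer than 2. In barcodes with 2 or more, 41 of the 47 genes lay below 0, with a median of −0.39. With at least 2 lectin UMIs required, the median was −0.18 over 39 genes, and with 0 UMIs of the excluded lineages −0.20 over 41 genes. Fcgr1 is itself interferon-induced, so the split is not independent of the list, and the difference between the sets was not tested.

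Free RNA moved the same way. In barcodes of at most 100 UMIs, Ifit1 stood at 204 CPM in the ketogenic and 407 CPM in the normal library, and Ifih1 at 68.5 CPM in the ketogenic and 141 CPM in the normal library. With this profile subtracted at 5% of each sum the type I median was −0.36, with 16 of 47 genes lower. Its full part in the difference was not tested.

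Other gates of the same libraries gave similar values for this list. Its median was −0.32 in class II-high barcodes without lectins, −0.36 in CCR7-positive, −0.46 in C1q-positive and −0.32 in monocyte-gated barcodes, against −0.37 in the lectin-positive ones. The CCR7-positive gate was small, with 14 ketogenic and 24 normal barcodes and 27 genes of the list measured. These gates share the 2 libraries and are not separate evidence. Ifit1 stood at 453 CPM in ketogenic and 711 CPM in normal class II-high barcodes without lectins, and at 593 CPM in the ketogenic and 908 CPM in the normal library in monocyte-gated ones.

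Genes that respond to interferon gamma were mixed. Of 17 measured, 1 was at least 1.5-fold higher and 2 lower, with a median of −0.23. Gbp7, a guanylate-binding protein, stood at 118 CPM in ketogenic and 275 CPM in normal members, and its relative Gbp3 at 62.2 CPM in the ketogenic and 120 CPM in the normal library. Cxcl9, a chemokine that draws T cells, stood at 239 CPM in ketogenic and 136 CPM in normal members. It was seen in 14 ketogenic and 7 normal barcodes, and 1 barcode held 27.3% of its UMIs in the ketogenic and 67.8% in the normal library. Without those barcodes Cxcl9 stood at 177 CPM in the ketogenic and 44.3 CPM in the normal library (log2 ratio 1.61). Cxcl10, a ligand of the same receptor, stood at 1893 CPM in ketogenic and 2501 CPM in normal members. With fewer than 2 Ly6c2 and Fcgr1 UMIs it had 43 UMIs (712 CPM) in ketogenic and 19 UMIs (247 CPM) in normal barcodes. Ketogenic Cxcl10 was also higher in class II-high barcodes without lectins (2492 against 2281 CPM) and C1q-positive ones (2505 against 2365 CPM). It was lower in CCR7-positive (974 against 1439 CPM) and monocyte-gated barcodes (3297 against 3342 CPM).

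Class II genes did not share a direction. Of 8 measured genes 1 was at least 1.5-fold lower and 0 higher. The list median was −0.04, from −0.32 to 0.05 over 18 alternatives, and its sign turned under 3 of them. These were no minimum beyond 1 UMI, mitochondrial and ribosomal genes left out (0.0024), and only barcodes with 2 or more Ly6c2 and Fcgr1 UMIs. Of 4 measured genes outside the rule, 3 lay above 0 in barcodes with 2 or more such UMIs and 0 in those with fewer than 2. H2-Ab1, the beta chain of I-A, stood at 4834 CPM in ketogenic and 6879 CPM in normal members (log2 ratio −0.51). H2-Eb1, the beta chain of I-E, stood at 3504 CPM in ketogenic and 4494 CPM in normal members (−0.36), and H2-Aa at 6367 CPM in the ketogenic and 6976 CPM in the normal library (−0.13). Cd74, the invariant chain that guides class II to endosomes, stood at 18143 CPM in ketogenic and 16120 CPM in normal members (0.17). These 4 genes set the class II limit of the rule. Ciita, the master activator of class II transcription, was not part of the rule and had 38 UMIs in 24 ketogenic members and 92 UMIs in 42 normal members. It stood at 118 CPM in ketogenic and 212 CPM in normal members (−0.75).

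The peptide editors of class II were closer. H2-DMa stood at 731 CPM in ketogenic and 704 CPM in normal members, H2-DMb1 at 936 CPM in the ketogenic and 884 CPM in the normal library, and H2-DMb2 at 115 CPM in the ketogenic and 90.1 CPM in the normal library. In class II-high barcodes without lectins Ciita stood at 68.8 CPM in the ketogenic and 177 CPM in the normal library, and H2-Ab1 at 4354 CPM in the ketogenic and 7037 CPM in the normal library. In free RNA Ciita stood at 9.62 CPM in the ketogenic and 26.4 CPM in the normal library, and H2-Ab1 at 562 CPM in the ketogenic and 1112 CPM in the normal library.

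MHC class I genes and peptide loading were nearly even, with a median of 0.11 over 18 genes, 2 higher by 1.5-fold and 0 lower, and a median of −0.02 with no minimum on UMIs. H2-K1, a classical class I chain, stood at 1548 CPM in ketogenic and 2302 CPM in normal members (−0.57). H2-M3, which presents formylated peptides, stood at 137 CPM in ketogenic and 69.3 CPM in normal members (0.81). Psme2, a proteasome activator subunit, stood at 668 CPM in ketogenic and 434 CPM in normal members (0.60).

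Endolysosomal genes were lower in part. Of 21 measured, 5 were at least 1.5-fold lower and 1 higher, with a median of −0.28. The summed list did not go the same way, at 21578 CPM in ketogenic and 20852 CPM in normal members. The ratio of the sums was 1.45 (1.34 to 1.56) in barcodes with fewer than 2 Ly6c2 and Fcgr1 UMIs. It was 0.962 (0.929 to 0.997) in those with 2 or more. In barcodes with fewer than 2, Cst3 alone held 799 of 1495 ketogenic and 327 of 1317 normal UMIs of the list. Sums without Cst3 were not computed, so the ratio of the sums gives no direction for the other genes. Lgmn, the asparagine-specific protease legumain, stood at 155 CPM in ketogenic and 339 CPM in normal members (−1.03). Ctsb, the protease cathepsin B, stood at 644 CPM in ketogenic and 1088 CPM in normal members (−0.74). Ctsd, the protease cathepsin D, stood at 127 CPM in ketogenic and 319 CPM in normal members, and 1 ketogenic barcode held 36.6% of its UMIs. Cst3 was the one gene higher, at 6196 CPM in ketogenic and 3810 CPM in normal members (0.70). A single barcode held 12.2% of its UMIs in the ketogenic library, and without the top barcode of each library the levels were 5502 CPM in the ketogenic and 3664 CPM in the normal library (0.58), just under 1.5-fold. The same list had a median of 0.00 in class II-high barcodes without lectins, 0.02 in C1q-positive and −0.08 in monocyte-gated barcodes. In the small CCR7-positive gate it was −0.26 over 16 genes. The difference from these gates was not tested. These proteases are also abundant in macrophages, and Ctsd stands in the macrophage list as well. Lgmn stood at 185 CPM in the ketogenic and 579 CPM in the normal free RNA.

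Among costimulatory and checkpoint ligands, 2 of 9 measured genes were at least 1.5-fold higher and 1 lower, and Tnfsf9 had the highest log2 ratio of all 2145 genes. Tnfsf9, the ligand of the T cell receptor 4-1BB, had 67 UMIs in 16 ketogenic members and 21 UMIs in 12 normal members. It stood at 208 CPM in ketogenic and 48.5 CPM in normal members, a raw ratio of 4.30 (2.60 to 7.38) and a log2 ratio of 1.74. A single barcode held 14 of the UMIs in the ketogenic and 4 in the normal library, and without those barcodes the levels were 170 CPM in the ketogenic and 39.6 CPM in the normal library. In C1q-positive barcodes it stood at 41.7 CPM in the ketogenic and 39.0 CPM in the normal library. The other gene at 2-fold, Fcgrt, the neonatal Fc receptor, stood at 149 CPM in ketogenic and 60.0 CPM in normal members, and was chosen after its values were seen. For Fcgrt 1 barcode held 16.7% of the UMIs in the ketogenic and 7.69% in the normal library. Without those barcodes its levels were 127 CPM in the ketogenic and 56.4 CPM in the normal library (0.94), just under 2-fold. Cd83, a surface marker of maturing dendritic cells, stood at 286 CPM in ketogenic and 164 CPM in normal members (0.73). Cd86 and Cd40, which costimulate T cells and receive T cell help, differed little. Cd86 stood at 230 CPM in ketogenic and 261 CPM in normal members, and Cd40 at 115 CPM in the ketogenic and 129 CPM in the normal library. Lgals9, a secreted galectin, stood at 180 CPM in ketogenic and 298 CPM in normal members.

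Of the cytokines, 4 of 21 were measured. Il1b, an inflammatory cytokine, stood at 1542 CPM in ketogenic and 1046 CPM in normal members (0.55), and Tgfb1, a suppressive one, at 286 CPM in the ketogenic and 187 CPM in the normal library (0.56). Il1rn, which blocks the interleukin-1 receptor, stood at 56.0 CPM in ketogenic and 139 CPM in normal members (−1.06). Il12b and Il23a, which dendritic cells make to direct T cells, had 0 UMIs in both libraries. The floor used for a count of 0 is 3 UMIs, which is 9.33 CPM in the ketogenic and 6.93 CPM in the normal sum.

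Chemokines and their receptors leaned lower, with 6 of 16 measured genes at least 1.5-fold lower and 2 higher, and a median of −0.39. Ccl9 stood at 171 CPM in ketogenic and 457 CPM in normal members. Ccr1, a receptor for inflammatory chemokines, stood at 87.0 CPM in ketogenic and 215 CPM in normal members. Ccl7, which draws monocytes, stood at 28.0 CPM in ketogenic and 196 CPM in normal members. Ccl3, another inflammatory chemokine, stood at 77.7 CPM in ketogenic and 245 CPM in normal members. Single barcodes held 55.6% of ketogenic Ccl7 and 39.6% of normal Ccl3. Cxcr4, which retains cells near its ligand, stood at 99.5 CPM in ketogenic and 46.2 CPM in normal members, in 13 ketogenic and 12 normal barcodes.

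Immediate early and NF-κB genes were split, with a median of 0.09 over 29 genes, 2 at least 1.5-fold higher and 2 lower. The sign of that median turned under 3 alternatives. Nfkbia, an inhibitor of NF-κB, stood at 886 CPM in ketogenic and 550 CPM in normal members, and the stress factor Atf3 at 870 CPM in the ketogenic and 554 CPM in the normal library. Ier3 stood at 152 CPM in ketogenic and 416 CPM in normal members, and Bcl3, a partner of NF-κB subunits, at 71.5 CPM in the ketogenic and 159 CPM in the normal library.

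**Figure D4:**
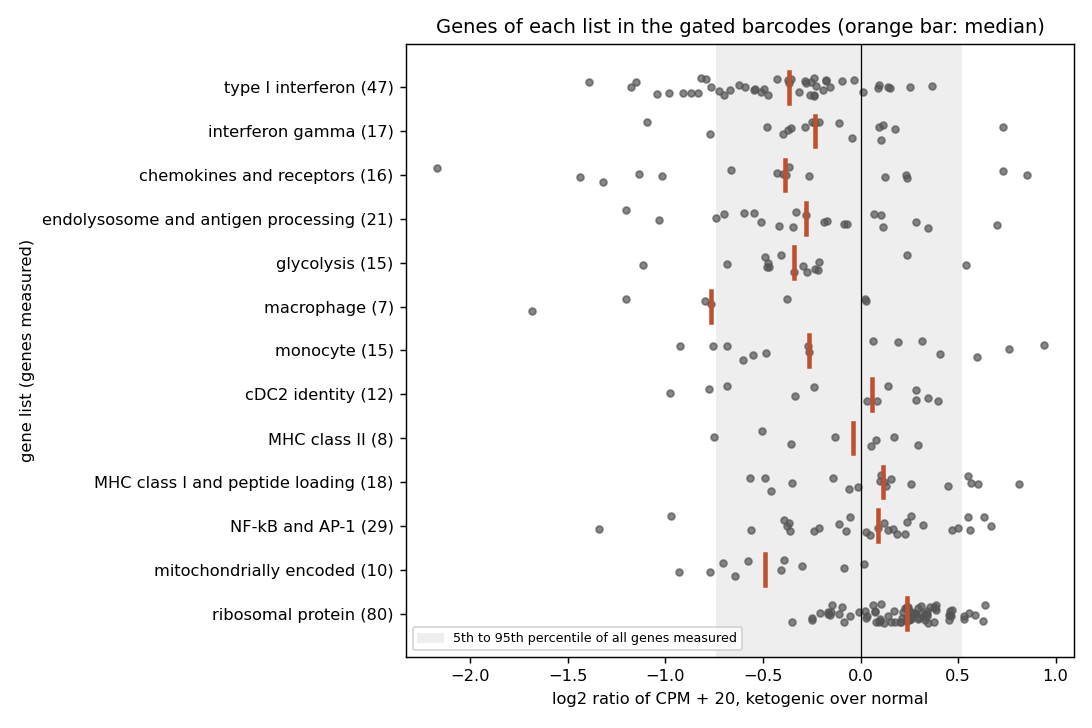
Log2 ratio of CPM + 20, ketogenic over normal, of each measured gene (grey points, seeded vertical jitter) in 13 gene lists, with the median of each list as an orange bar and the 5th to 95th percentile of all 2145 genes shaded. The type I interferon median lies at −0.37, glycolysis at −0.34, MHC class II at −0.04 and ribosomal protein at 0.24.

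Metabolic genes were also compared, as the diets differ in fuel. Glycolysis had a median of −0.34 over 15 measured genes, 2 of them at least 1.5-fold lower and 0 higher. Aldoa, aldolase A, stood at 528 CPM in ketogenic and 861 CPM in normal members, and Pgam1, a later enzyme of the path, at 364 CPM in the ketogenic and 520 CPM in the normal library. Gapdh stood at 1561 CPM in ketogenic and 1889 CPM in normal members. The glycolysis median was −0.14 in class II-high barcodes without lectins, 0.01 in C1q-positive and −0.20 in monocyte-gated barcodes. In the small CCR7-positive gate it was −0.74, over only 8 genes.

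Of 30 genes of fatty acid uptake and oxidation, 5 were measured and 3 were at least 1.5-fold higher. The median was 0.62. It was 0.04 over 26 genes with no minimum on UMIs, and 0.17 with 1 gene higher when barcodes with neutrophil or tumor RNA were left out. It turned negative where 1 gene was left to measure, to −0.16 when barcodes were thinned and to −0.47 without barcodes of 2 or more Ly6c2 and Fcgr1 UMIs. Etfb, which passes electrons from fatty acid oxidation to the respiratory chain, had 66 UMIs in 36 ketogenic members and 42 UMIs in 29 normal members. It stood at 205 CPM in ketogenic and 97.0 CPM in normal members (0.94). In free RNA Etfb stood at 217 CPM in the ketogenic and 136 CPM in the normal library. Acadl, an acyl-CoA dehydrogenase, stood at 174 CPM in ketogenic and 106 CPM in normal members. Fabp5, a fatty acid carrier, stood at 292 CPM in ketogenic and 162 CPM in normal members, but 1 ketogenic barcode held 46.8% of its UMIs. Slc16a3, a lactate exporter, stood at 115 CPM in ketogenic and 173 CPM in normal members. Bdh1, which interconverts ketone bodies, had 0 UMIs in both libraries.

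Mitochondrially encoded genes had a median of −0.49 over 10 genes, 4 at least 1.5-fold lower and 0 higher, and ribosomal protein genes a median of 0.24 over 80 genes, 3 higher and 0 lower. Other gates of these libraries had like values, with mitochondrial medians from −0.64 to −0.42 and ribosomal medians from 0.08 to 0.25. The −0.64 and the 0.08 come from the small CCR7-positive gate. Without barcodes of 2 or more Ly6c2 and Fcgr1 UMIs the ribosomal median was −0.01. The ratio of ribosomal sums was 0.990 (0.968 to 1.01) with fewer than 2 such UMIs and 1.23 (1.22 to 1.25) with 2 or more. Ribosomal protein genes summed to 198695 CPM in ketogenic and 169167 CPM in normal members. Mitochondrially encoded genes summed to 14568 CPM in the ketogenic and 20388 CPM in the normal library. CPM of other genes were also computed without both classes.

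Monocyte and macrophage genes differed among themselves. In the monocyte list 3 of 15 measured genes were at least 1.5-fold higher and 4 lower, with a median of −0.26. Chil3, a chitinase-like protein, stood at 522 CPM in ketogenic and 300 CPM in normal members, in 14 ketogenic and 12 normal barcodes. Thbs1, a matrix glycoprotein, stood at 187 CPM in ketogenic and 372 CPM in normal members, and Fcgr1 at 473 CPM in the ketogenic and 702 CPM in the normal library. Of 7 measured macrophage genes, 4 were lower and 0 higher, with a median of −0.77. Apoe, a lipid carrier, stood at 283 CPM in ketogenic and 506 CPM in normal members. In the cDC2 list 3 of 12 measured genes were lower and 0 higher, and the median was 0.06, with the sign turning under 4 alternatives. Mgl2, a lectin related to Clec10a, stood at 56.0 CPM in 4 ketogenic and 129 CPM in 12 normal barcodes. Jaml, an adhesion molecule, stood at 109 CPM in ketogenic and 201 CPM in normal members, and Itgam, an integrin chain, at 127 CPM in the ketogenic and 217 CPM in the normal library.

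**Figure D5:**
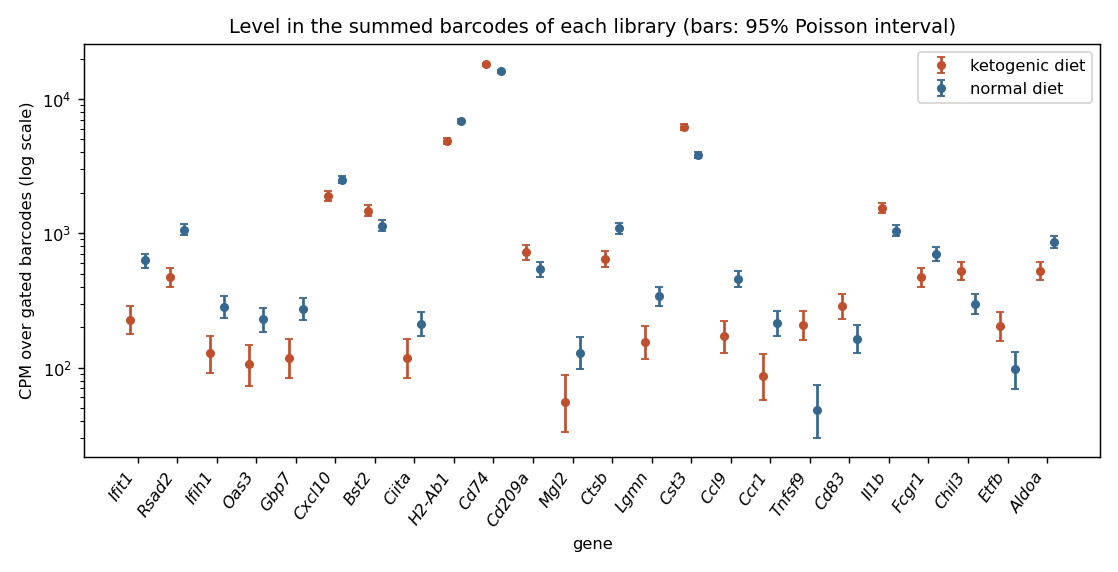
CPM of 24 genes in the summed lectin-positive barcodes (log axis), ketogenic library left and normal library right at each gene, with 95% exact Poisson intervals for counting error. Tnfsf9 lies at 208 CPM in ketogenic and 48.5 CPM in normal members, and Ifit1 at 227 CPM in the ketogenic and 628 CPM in the normal library.

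Among the 12 lowest genes by the fixed rule, beside those above, were Nckap1l, a regulator of actin in blood cells, at 52.8 CPM in ketogenic and 145 CPM in normal members, and P2rx4, an ATP-gated channel, at 40.4 CPM in the ketogenic and 102 CPM in the normal library. Sdc3, a heparan sulfate proteoglycan, stood at 115 CPM in ketogenic and 259 CPM in normal members. Lfng, which modifies Notch receptors, stood at 40.4 CPM in the ketogenic and 99.3 CPM in the normal library, and Esyt1, a membrane tether, at 52.8 CPM in the ketogenic and 122 CPM in the normal library. The highest by that rule, after Etfb, were Eif4e, the cap-binding translation factor, at 99.5 CPM in ketogenic and 46.2 CPM in normal members, and H2-M3. Me2, a mitochondrial malic enzyme, stood at 99.5 CPM in ketogenic and 48.5 CPM in normal members, and Cisd2, an iron-sulfur protein, at 143 CPM in the ketogenic and 73.9 CPM in the normal library. Sin3b, a corepressor, stood at 249 CPM in ketogenic and 136 CPM in normal members, Yy1, a transcription factor, at 149 CPM in the ketogenic and 80.8 CPM in the normal library, and Cox6a1, a subunit of the respiratory chain, at 398 CPM in the ketogenic and 233 CPM in the normal library. Fam174a, Pa2g4 and Igbp1 completed the 12, with log2 ratios of 0.81, 0.76 and 0.75.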

How the data were processed

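The deposited matrices hold raw UMI counts per gene and barcode, unfiltered, made by the authors with Cell Ranger (version 4 per the file headers). The submitters' processing notes list the builds mm10 and GRCm38, Seurat 3.2.0 and Cell Ranger 6.0.0. CD45-enriched tumor cells were run with Chromium 3′ chemistry, per the labels' protocols. The ketogenic library sums to 42710007 UMIs and the normal library to 37575996 UMIs over 32285 genes. Counts of members were summed per library with Python 3.11.15, numpy 2.4.6, scipy 1.17.1 and pandas 2.3.3 and expressed as CPM, and ratios used 20 CPM as pseudocount. With 1 library per diet no test was made, and the mice were pooled, so intervals (Clopper-Pearson, exact Poisson, conditional for ratios) cover counting error only. The interval method was tried on simulated Poisson counts, the model it assumes. These lack the pile-up of UMIs in single barcodes seen here, so they cannot show how the intervals hold for such genes.

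Members and lists were chosen with earlier results of these data known. Named genes were the 12 highest and 12 lowest log2 ratios whose interval lay on 1 side of 0 and of which no barcode held over 10% of the UMIs where the gene was higher, the 5 most different genes of each list, the genes of the rule and the marker lists, and costimulation, cytokine and ketone genes. No doublet caller was run. The limits of the rule on T, NK and B cell genes remove part of the mixed barcodes. Comparison gates all passed the same quality limits. Promoters are from RefSeq. Alternatives covered pseudocount, minimum UMIs, weighting, thinning, free RNA, scaling and the limits of the rule. Barcodes gated on T and NK genes and the set with 2 or more Ly6c2 and Fcgr1 UMIs were added after seeing the data. Some genes of the ketone list are not reported here.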

Additional observations from a re-analysis of the deposited data

How the results depend on the processing

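The share of members stayed within the interval around its log2 ratio of −0.36 under all 6 alternatives run, from −0.41 with a mitochondrial limit of 5% to 0.06 with at least 2 lectin UMIs, where its sign turned. Counts of 2-fold genes depended on the setting. Against 2 higher genes, there were 8 with a pseudocount of 5 CPM, 9 with 1 CPM, 30 with no minimum beyond 1 UMI, 0 with at least 200 UMIs, 4 as a mean over barcodes, 1 when thinned to 1500 UMIs, 5 without mitochondrial and ribosomal genes, 5 with at least 2 lectin UMIs, 6 with at least 1 Cd209a UMI, 5 with 0 UMIs of excluded lineages, 9 without barcodes of 2 or more Ly6c2 and Fcgr1 UMIs and 5 with only those. Against 38 lower genes, there were 65, 73, 116, 6 and 12 in the order of pseudocount 5, pseudocount 1, no minimum, at least 200 UMIs and thinned, then 22 with at least 2 lectin UMIs, 23 with 0 UMIs of excluded lineages and 8 without barcodes of 2 or more Ly6c2 and Fcgr1 UMIs. Fewer genes were measured in several of these settings than the 2145 as reported: 548 with at least 200 UMIs, 638 when thinned, 1424 with at least 2 lectin UMIs, 1403 with 0 UMIs of excluded lineages and 371 in the last, against 11433 with no minimum. As a share of genes measured, the lower ones were 1.77% as reported, 1.09%, 1.88%, 1.54%, 1.64% and 2.16% in those 5 settings, and 1.01% with no minimum. The higher ones were 0.0932% as reported, 0%, 0.157%, 0.351%, 0.356% and 2.43% in the same 5 settings, and 0.262% with no minimum. Without barcodes of 2 or more Ly6c2 and Fcgr1 UMIs, lower genes thus did not outnumber higher ones. The type I median was −0.18, −0.20 and 0.43 with at least 2 lectin UMIs, 0 UMIs of excluded lineages and without barcodes of 2 or more Ly6c2 and Fcgr1 UMIs, and the interferon gamma median was 1.45 under the last, from 1 gene. The last setting holds 16 ketogenic and 19 normal barcodes and 8 measured type I genes, and the cause was not tested. The 24 highest and lowest genes gave 332 values under 17 alternatives, so not each gene had a value under each. Of these values none reversed and 3 moved past their interval: Sdc3 to −0.57 and Oas3 to −0.49 with at least 2 lectin UMIs, and Ifit1 to −1.04 with 0 UMIs of excluded lineages. By CPM in barcodes with fewer than 2 Ly6c2 and Fcgr1 UMIs, H2-M3 and Fam174a were lower in the ketogenic library and Lgmn higher. Each of them had few UMIs there, and the others of these 24 genes kept their direction. No paired analysis was possible because each diet has 1 library.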
